A study of Mus musculus with 22 samples.

Results

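Antigen presentation genes were examined in livers of Slc10a1-/- and wild-type mice. The set was defined by name: every gene whose symbol begins with H2-, the prefix of the mouse major histocompatibility complex (MHC), and Cd74, B2m, Tap1, Tap2, Tapbp, Ciita, Nlrc5, Psmb8, Psmb9 and Psmb10. Through their Ensembl identifiers these were 55 of the 47729 genes in the count tables, 45 of them H2- genes and 10 of them the genes named singly. Of the 55, 50 lie on chromosome 17.

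Liver poly(A) RNA was sequenced from male C57BL/6 mice on a HiSeq-2500. The knockout (KO) animals were Slc10a1-/-, lacking the gene for NTCP, the transporter that takes conjugated bile acids up from blood into hepatocytes, and the wild-type (WT) animals carried no labelled alteration. There were 3 KO and 3 WT samples at 4 weeks of age, 6 KO and 4 WT samples at 8 weeks, and 3 KO and 3 WT samples at 20 months, 22 libraries in all. The labels number the samples of a group and say no more of how they were taken, so p-values measure the spread between these samples, which may in part be technical.

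MHC class I molecules consist of a heavy chain (in this strain H2-K1 and H2-D1) and the light chain B2m. They carry peptides that proteasomes cut from proteins of the cell, that the TAP transporter brings into the endoplasmic reticulum and that Tapbp (tapasin) helps to load, and nearly all nucleated cells make them. MHC class II molecules, alpha and beta chains held in the endosomal route by the invariant chain Cd74, carry peptides of ingested proteins and are made mainly by dendritic cells, B cells and macrophages, in liver including Kupffer cells and sinusoidal endothelium. Nlrc5 and Ciita are the transactivators of the class I and class II genes, and interferon gamma is the best known inducer of both.

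The promoters of these genes are known for a shared upstream module, in which a cyclic-AMP-response-like element is followed by a CCAAT box, read as ATTGG on the other strand. Of the 55 genes, 38 had an entry in the RefSeq promoter table (GRCm38.p6). H2-Aa, H2-Eb1, B2m and H2-K1 are shown because they stand for the class II chains, the light chain and the heavy chains whose values follow. Capitals mark, on either strand, ATTGG, the letters TGACG of the upstream element, and 2 copies of GAAA separated by any 2 bases, a repeat found in interferon-response elements. Each run ends just before the transcript start. The intervals are chr17:34287824-34287973 on the minus strand for H2-Aa, chr17:34305722-34305866 on the plus strand for H2-Eb1, chr2:122147537-122147685 on the plus strand for B2m and chr17:34000348-34000497 on the minus strand for H2-K1.
H2-Aa: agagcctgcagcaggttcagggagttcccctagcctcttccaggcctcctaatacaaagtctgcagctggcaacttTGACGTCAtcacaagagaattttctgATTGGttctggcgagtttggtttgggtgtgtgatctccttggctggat
H2-Eb1: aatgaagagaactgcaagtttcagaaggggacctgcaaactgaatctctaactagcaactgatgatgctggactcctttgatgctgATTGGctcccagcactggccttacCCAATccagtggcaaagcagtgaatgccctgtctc
B2m: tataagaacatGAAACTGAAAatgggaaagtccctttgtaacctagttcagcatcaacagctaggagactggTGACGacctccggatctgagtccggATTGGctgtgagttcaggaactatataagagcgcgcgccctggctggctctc
H2-K1: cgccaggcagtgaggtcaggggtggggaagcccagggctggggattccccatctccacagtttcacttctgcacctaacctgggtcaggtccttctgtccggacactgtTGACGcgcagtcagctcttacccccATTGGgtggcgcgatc
In H2-Aa the TGACG hits on the 2 strands overlap as one palindrome. Searched on both strands of the 250 bases before the start, ATTGG was present in 33 of the 38 genes, against 33.8% of 32851 promoters. TGACG was present in 15 of the 38, against 17.8% of promoters, and the GAAA repeat in 3 of the 38 (B2m, H2-T22 and H2-T23), against 2.98%. A TGACG with an ATTGG starting 25 or 26 bases after it occurred in 5 of the 38 (H2-Aa, B2m, H2-K1, H2-D1 and H2-M3) and in 0.152% of all promoters. That spacing was chosen after the sequences were seen, and all these matches are descriptions of letters, not of binding.

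The 4-week libraries held 5496425 to 6956124 reads in genes, the 8-week libraries 18950112 to 26066897 and the 20-month libraries 18032355 to 26789350. The files of the 4-week libraries are marked as paired and the others as single, and the 8-week files carry another run tag than the rest, so age, run and read layout cannot be told apart. The targeted gene, Slc10a1, was checked first, in CPM (reads per 1000000 reads in genes after scaling). At 4 weeks it had 111.6 to 264.1 CPM in KO against 604.7 to 710.6 CPM in WT, at 8 weeks 49.2 to 93.4 CPM against 432.4 to 464.5 CPM, and at 20 months 90.6 to 102.9 CPM against 151.7 to 365.3 CPM. It was at 0 in no library, and KO and WT did not overlap at any age. edgeR called it at 4 and 8 weeks (adjusted p = 0.0117 and 9.00e-05) but not at 20 months (log2 fold change -1.49, SE 0.32, adjusted p = 0.821), where DESeq2 did (adjusted p = 0.0108). Some libraries stood apart in markers of particular cells. KO library 1 at 4 weeks had the lowest hepatocyte marker sum of its age (63506 CPM over 9 markers, against 160840 and 201766 in the other KO libraries and 137952 to 157147 in WT). WT library 1 at 8 weeks was highest of its group in class II genes and in T and NK cell, B cell, dendritic cell, Kupffer cell, monocyte, neutrophil and cholangiocyte markers. WT libraries 1 and 2 at 20 months held 3820.0 and 476.3 CPM of neutrophil markers, against 7.72 to 18.7 in KO and 7.62 in WT library 3. For part of the results that these libraries change, values are given below with and without them.

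The antigen presentation genes took 0.286 to 0.899% of the counts in genes. Per kilobase of exon, B2m ranked first in every group, at 1038 mean CPM per kilobase in KO and 1327 in WT livers at 8 weeks. H2-K1 and H2-Q10, a class I heavy chain that liver secretes, came next, at 215.7 and 263.6 mean CPM per kilobase in KO and 281.0 and 293.6 in WT livers at 8 weeks, and H2-D1 and H2-T23 followed. At the other end, 9 of the 55 genes had no count in any library, where 3 counts equal 0.112 to 0.546 CPM by library, and 7 more had 1 to 22 counts in total. Of those 9, 5 belong to the M region of class I genes and 4 are pseudogenes or genes functional only in some strains.

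At 4 weeks 2 of the 3 class II chains tested, the invariant chain and part of the class I peptide supply were lower in KO livers. Of the 55 genes, 26 passed the filter on low counts, and of these 6 fell in KO and none rose at an adjusted p of 0.05 in edgeR's quasi-likelihood test. Of all 11144 genes tested, 10.8% were called, 5.60% lower and 5.17% higher. DESeq2 called 8 of the set, H2-Aa as lower and H2-Q4 as higher beside the same 6, and 11.9% of all genes. The 6 were H2-Ab1, H2-Eb1, Cd74, Psmb9, Tap1 and H2-T24. The log2 fold change (KO over WT) was below 0 for 21 of the 26 and had a median of -0.63, against 0.01 over all genes tested. For 16 of the 26 every KO library lay below every WT library, as it did for 18.5% of all genes tested, and for 1, H2-Q4, every KO library lay above, as for 16.9% of all genes. The other 29 genes, Ciita among them, had too few counts to be tested at this depth.

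The class II beta chain H2-Ab1 (chr17:34257689-34269419) had 0.872, 2.52 and 3.99 CPM in KO livers, against 13.5, 20.3 and 19.9 CPM in WT livers. The groups did not overlap, and the mean was 2.46 ± 1.56 CPM in KO and 17.9 ± 3.80 CPM in WT (SD, n = 3 each). It fell 7.42-fold (log2 fold change -2.89, SE 0.44, adjusted p = 0.00779). The KO values rest on 5, 12 and 18 reads, against 71, 114 and 124 reads in WT.

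Another class II beta chain gene, H2-Eb1 (chr17:34305867-34316674), had 1.05, 3.35 and 4.21 CPM in KO livers, against 15.4, 14.2 and 13.3 CPM in WT livers. The matching alpha chain gene, H2-Ea-ps, is annotated as a polymorphic pseudogene and had 1 count over all 22 libraries, so these values describe RNA of H2-Eb1 only. H2-Eb1 is therefore not read here as a complete class II molecule. H2-Eb1 fell 5.07-fold (log2 fold change -2.34, SE 0.41, adjusted p = 0.0126). The invariant chain Cd74, which blocks the peptide groove of class II molecules until they reach endosomes, had 2.61, 12.4 and 12 CPM in KO livers, against 28.8, 39.7 and 36.6 CPM in WT livers. It fell 3.93-fold (log2 fold change -1.98, SE 0.46, adjusted p = 0.0322). KO library 1 was the lowest in each of these genes, and the highest KO library was still below the lowest WT library.

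The alpha chain H2-Aa (chr17:34282744-34287823), whose promoter is printed above, had 1.39, 8.80 and 7.31 CPM in KO livers, against 18.5, 21.7 and 16.9 CPM in WT livers. Its groups did not overlap either, but it missed the threshold (log2 fold change -1.72, SE 0.50, adjusted p = 0.0592) and passed it without KO library 1 (log2 fold change -1.22, adjusted p = 0.0119). H2-DMb1, a chain of the DM molecule that removes the invariant chain's peptide, had 1.05, 0.838 and 1.55 CPM in KO livers, against 2.48, 3.02 and 3.05 CPM in WT livers (log2 fold change -1.31, SE 0.39, adjusted p = 0.0620). Its partner H2-DMa had 0.349, 2.10 and 1.77 CPM in KO livers, against 3.43, 3.02 and 3.54 CPM in WT livers (log2 fold change -1.27, SE 0.52, adjusted p = 0.143). H2-Ob, a chain of the DO molecule that holds DM back, had 1 read in each KO library, against 4, 4 and 9 reads in WT. It was too low to be tested among the 4-week libraries alone. With all 22 libraries in edgeR's fit it was called lower (log2 fold change -2.26, adjusted p = 0.0390).

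**Figure D1:**
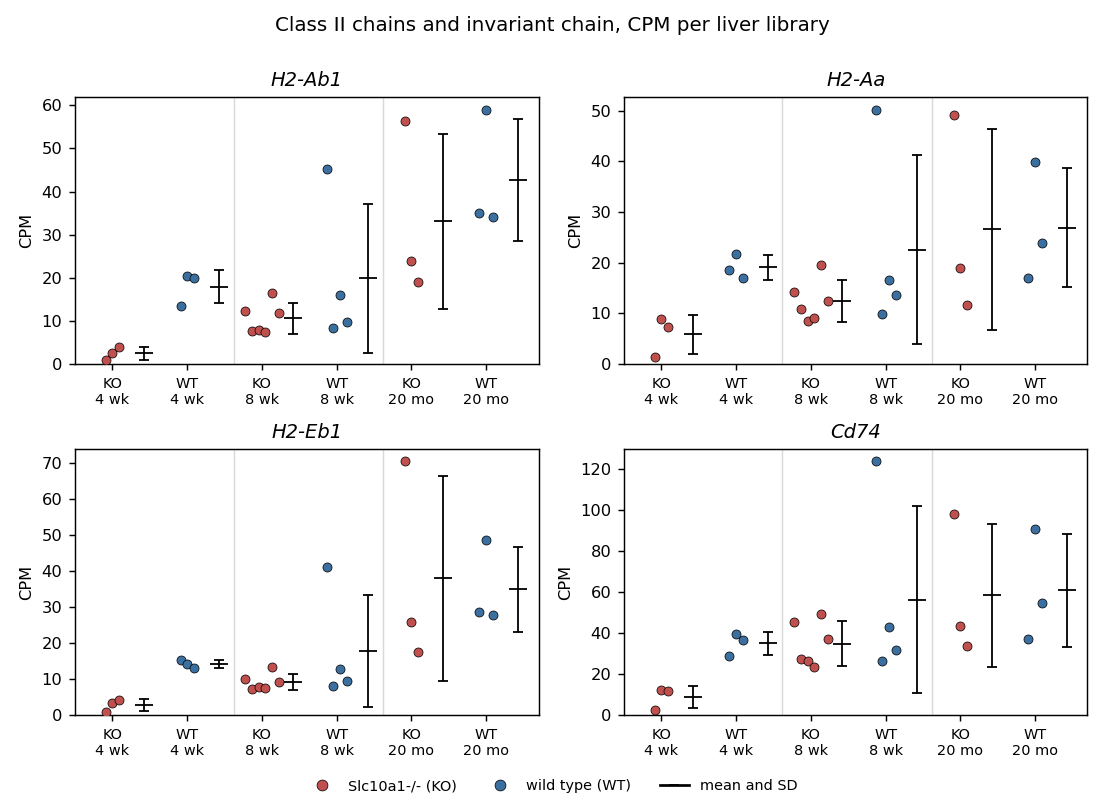
CPM of the class II genes H2-Ab1, H2-Aa, H2-Eb1 and Cd74 in each library (points), with KO left of WT at 4 weeks, 8 weeks and 20 months, and with the group mean and SD in black. At 4 weeks all KO points lie below all WT points, and at 8 weeks WT library 1 stands above the other WT libraries (50.2 CPM of H2-Aa, against 9.92 to 16.5).

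Psmb9 (chr17:34181987-34187764), an interferon-induced catalytic subunit of the immunoproteasome, had 2.44, 2.31 and 2.22 CPM in KO livers, against 10.1, 8.36 and 6.91 CPM in WT livers. The KO values were close together and all below WT. It fell 3.59-fold (log2 fold change -1.85, SE 0.29, adjusted p = 0.00919). The other inducible subunits also had lower values in KO, without passing the test. Psmb8 had 4.18, 5.45 and 7.09 CPM in KO livers, against 9.91, 9.25 and 18.5 CPM in WT livers (log2 fold change -1.18, SE 0.35, adjusted p = 0.0623), and for Psmb10 the log2 fold change was -0.89 (SE 0.28, adjusted p = 0.0762). In edgeR with no filter both passed (adjusted p = 0.00927 and 0.0247), and Psmb10 also passed with all 22 libraries in the fit (0.0385).

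Tap1 (chr17:34187553-34197225), a subunit of the peptide transporter, lies head to head with Psmb9, and their annotated transcripts overlap by 212 bases on opposite strands. It had 5.75, 5.66 and 1.99 CPM in KO livers, against 13.9, 11.7 and 12.5 CPM in WT livers. It fell 2.80-fold (log2 fold change -1.48, SE 0.36, adjusted p = 0.0377). Its partner subunit Tap2 had 7.67, 7.97 and 10.9 CPM in KO livers, against 9.53, 9.25 and 9.0 CPM in WT livers, and the groups overlapped (log2 fold change -0.07, SE 0.24, adjusted p = 0.878). Tapasin, Tapbp, had 29.8, 22.4 and 25 CPM in KO livers, against 32.0, 43.2 and 45.6 CPM in WT livers (log2 fold change -0.64, SE 0.21, adjusted p = 0.0870).

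**Figure D2:**
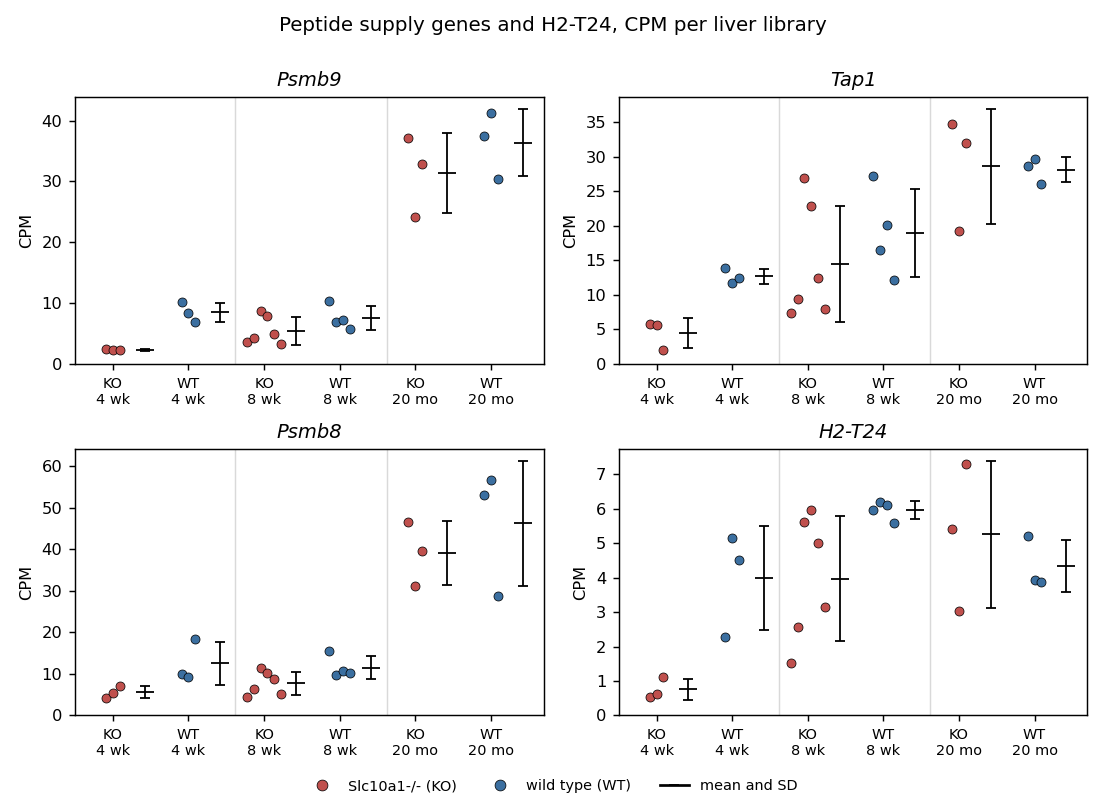
CPM of Psmb9, Tap1, Psmb8 and H2-T24 in each library (points), with KO left of WT at each age and the group mean and SD in black. At 4 weeks the KO points of Psmb9 lie between 2.22 and 2.44 CPM, below the WT points at 6.91 to 10.1, and at 20 months both genotypes lie between 24.2 and 41.2.

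The classical heavy chain H2-K1 (chr17:33996017-34000347) had 774.9, 824.2 and 935.8 CPM in KO livers, against 1226.9, 1125.5 and 1551.8 CPM in WT livers. The groups did not overlap, but the difference missed the threshold (log2 fold change -0.62, SE 0.23, adjusted p = 0.119). With all 22 libraries in edgeR's fit it passed (adjusted p = 0.0481). H2-D1 (chr17:35262730-35267499) had 444.7, 368.3 and 426.7 CPM in KO livers, against 471.9, 522.0 and 626.0 CPM in WT livers (log2 fold change -0.38, SE 0.21, adjusted p = 0.269). H2-Q10 had 344.3, 1437.7 and 1127.9 CPM in KO livers, against 1419.5, 1627.0 and 2078.8 CPM in WT livers. The lowest of these KO values is that of library 1, and the log2 fold change of H2-Q10 was -0.81 with that library (SE 0.46, adjusted p = 0.279) and -0.40 without it (adjusted p = 0.254). The light chain B2m (chr2:122147686-122153083) had 887.0, 1886.7 and 1435.8 CPM in KO livers, against 1835.5, 1828.7 and 1400.6 CPM in WT livers, and the groups overlapped (log2 fold change -0.26, SE 0.31, adjusted p = 0.621; -0.01 without KO library 1).

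**Figure D3:**
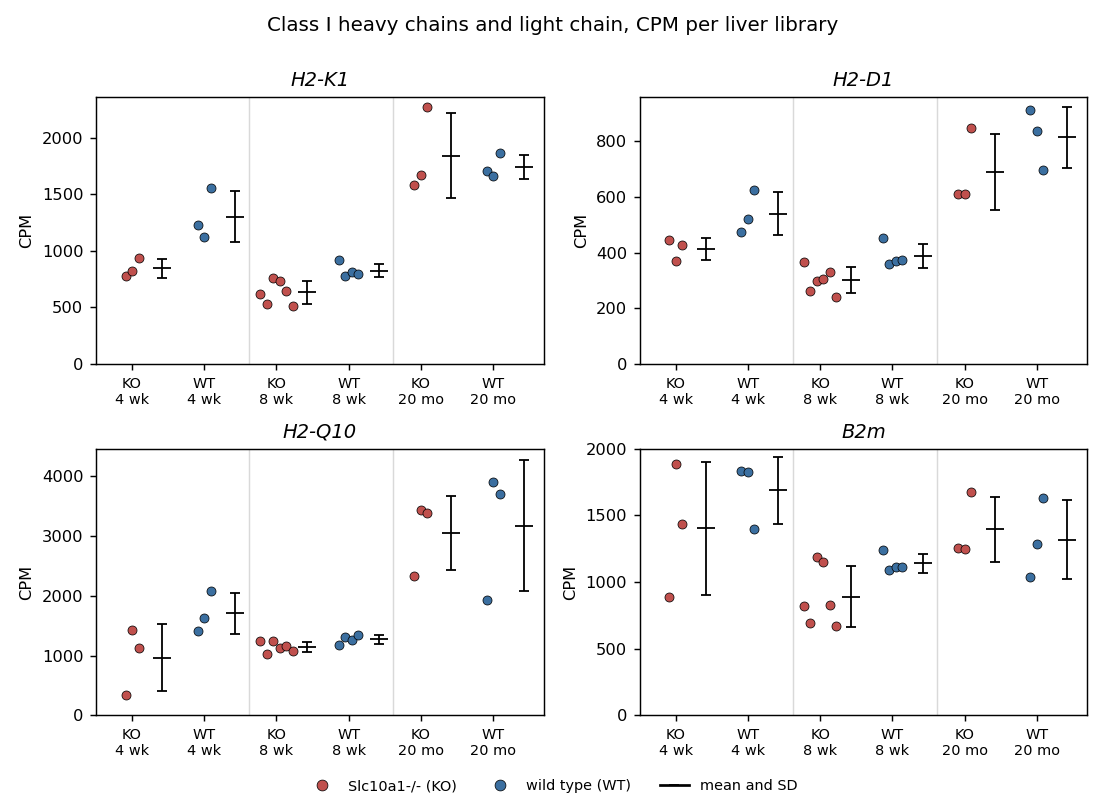
CPM of the class I heavy chains H2-K1, H2-D1 and H2-Q10 and the light chain B2m in each library (points), with KO left of WT at each age and the group mean and SD in black. H2-K1 lies between 774.9 and 935.8 CPM in KO and between 1125.5 and 1551.8 in WT livers at 4 weeks, and above 1579 CPM in all 20-month libraries, while B2m overlaps between genotypes at every age.

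Among the other class I genes, H2-T24 of the T region (chr17:36005695-36020560) had 0.523, 0.629 and 1.11 CPM in KO livers, against 2.29, 5.16 and 4.50 CPM in WT livers. It fell 5.27-fold (log2 fold change -2.40, SE 0.49, adjusted p = 0.0210), on 3, 3 and 5 reads in KO. H2-T23, the heavy chain of Qa-1, which presents class I leader peptides to NK cells, ran from 82.6 to 132.3 CPM in KO livers and from 157.7 to 198.0 CPM in WT livers (log2 fold change -0.61, adjusted p = 0.117). It passed as lower with all 22 libraries in edgeR's fit (adjusted p = 0.0441). H2-Q4 of the Q region ran the other way, with 62.2, 36.3 and 39.9 CPM in KO livers, against 29.5, 23.5 and 23.6 CPM in WT livers (log2 fold change 0.86, SE 0.25, adjusted p = 0.0603). It passed as higher in DESeq2 (adjusted p = 0.0359), and in edgeR with no filter (0.0153) and with all 22 libraries in the fit (0.0458). Of the 50-base windows of H2-Q4, 36.4% also occur in another gene, most of them in Gm11131 (15.3%), which overlaps it on the opposite strand. Reads there may be missing from the count of H2-Q4, and reads of Q region genes that share sequence may be in it.

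Of the transactivators, Nlrc5 had 20.9, 27.2 and 19.1 CPM in KO livers, against 13.5, 19.4 and 13 CPM in WT livers (log2 fold change 0.55, SE 0.24, adjusted p = 0.170). Ciita had 0, 0.419 and 0.443 CPM in KO livers, against 0.953, 2.13 and 0.964 CPM in WT livers, and was not tested.

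The 4-week calls for H2-Ab1 and Psmb9 were kept when any 1 of the 6 libraries was left out (adjusted p 0.00235 to 0.0438 for H2-Ab1 and 0.00869 to 0.0477 for Psmb9). Those for H2-Eb1, H2-T24, Cd74 and Tap1 each missed the threshold when WT library 2 or 3 was dropped (largest adjusted p 0.0558, 0.0958, 0.113 and 0.125), as did Cd74 and Tap1 without WT library 1 (0.0574 and 0.0859), and H2-T24, Cd74 and Tap1 without KO library 3 (0.0505, 0.0692 and 0.0578). Without KO library 1, which was low in hepatocyte and class II genes, all 6 calls were kept, with log2 fold changes of -2.45 for H2-Ab1, -1.90 for H2-Eb1 and -1.51 for Cd74. Beside H2-Aa, Tapbp (-0.75, adjusted p = 0.0378) and H2-Q7 (-0.76, adjusted p = 0.0457) then also passed.

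Genes that act around the antigen presentation genes were examined as lists. Of 11 tested interferon-gamma-responsive GTPases and chemokines, 7 fell in KO livers at 4 weeks and none rose, with a median log2 fold change of -1.64. Over all genes tested, 5.60% fell, 5.17% rose and the median was 0.01, against which all counts in these lists are to be read. Among them were the immunity-related GTPases Igtp (log2 fold change -2.28, adjusted p = 0.00366) and Iigp1 (log2 fold change -1.93, adjusted p = 0.00603), the guanylate-binding protein Gbp3 (log2 fold change -1.95, adjusted p = 0.0124) and the T cell chemoattractant Cxcl9 (log2 fold change -3.16, adjusted p = 0.0129). Of 18 tested genes of the type I interferon response, 14 fell and none rose, with a median of -1.94, and Irf7, the factor that amplifies type I interferon, had the smallest adjusted p (log2 fold change -3.13, adjusted p = 4.24e-04). Summed over its genes, the interferon-gamma list held 127.8 to 201.6 CPM in KO livers, against 560.3 to 639.3 CPM in WT livers.

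Of 15 tested genes of class II transcription (the RFX and NF-Y factors and the interferon-gamma signalling path), 1 fell and none rose, a share near that of all genes: Rfxap, a subunit of the RFX complex (log2 fold change -1.03, adjusted p = 0.0359). None of 16 tested class I supply and loading partners passed. Of 11 tested genes of class II endosomal processing, the protease Ctsl rose (log2 fold change 2.26, adjusted p = 0.00754) and the ubiquitin ligase March8, which removes class II molecules from the surface, fell (log2 fold change -0.95, adjusted p = 0.0229). Of 7 tested MHC-like genes outside the H2 region, 2 fell: Cd1d1, which presents lipids to NKT cells (log2 fold change -1.78, adjusted p = 0.00966), and Fcgrt, the neonatal Fc receptor (log2 fold change -1.29, adjusted p = 0.0142).

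Markers of several cell types but not of all, those that make class II among the lower ones, had lower sums in KO livers at 4 weeks. In bulk liver, fewer cells of a type and less RNA per cell cannot be told apart. B cell markers summed to 2.27 to 7.75 CPM in KO livers, against 11.8 to 17.3 CPM in WT livers, and dendritic cell markers to 9.41 to 15.3 CPM in KO, against 17.4 to 17.5 CPM in WT. The dendritic cell markers Flt3 and Siglech were at 0 in all 3 KO libraries. In those libraries 3 counts equal 0.520 to 0.546 CPM, so low levels of both could go unread. Kupffer cell markers summed to 530.3 to 769.1 CPM in KO and 835.2 to 1008.2 CPM in WT, and of 12 tested, 3 fell (Clec4f, Csf1r and Timd4) and 1 rose (Marco, log2 fold change 2.63, adjusted p = 0.00325). Of 11 tested sinusoidal endothelium markers, 3 fell (Flt4, Cdh5 and Clec4g), and the sum was 418.0 to 485.6 CPM in KO, against 543.7 to 633.9 CPM in WT. None of 2 tested dendritic cell markers and not the 1 tested B cell marker (Ighm, log2 fold change -1.0, adjusted p = 0.263) passed. Monocyte markers summed to 10.5 to 15.9 CPM in KO and 18.3 to 26.9 CPM in WT, and cholangiocyte markers to 19.5 to 28.3 CPM in KO and 37.4 to 42.4 CPM in WT. T and NK cell markers overlapped, at 3.31 to 10.6 CPM in KO and 8.84 to 12.4 CPM in WT. Stellate cell markers went both ways: of 9 tested, 1 rose and 1 fell, with a median log2 fold change of -0.23. Neutrophil markers had a median log2 fold change of 0.66 over 2 tested, and none passed. The class II genes together summed to 5.93 to 27.5 CPM in KO and 76.4 to 96.1 CPM in WT. The part of the cell markers in the class II result was not tested.

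**Figure D4:**
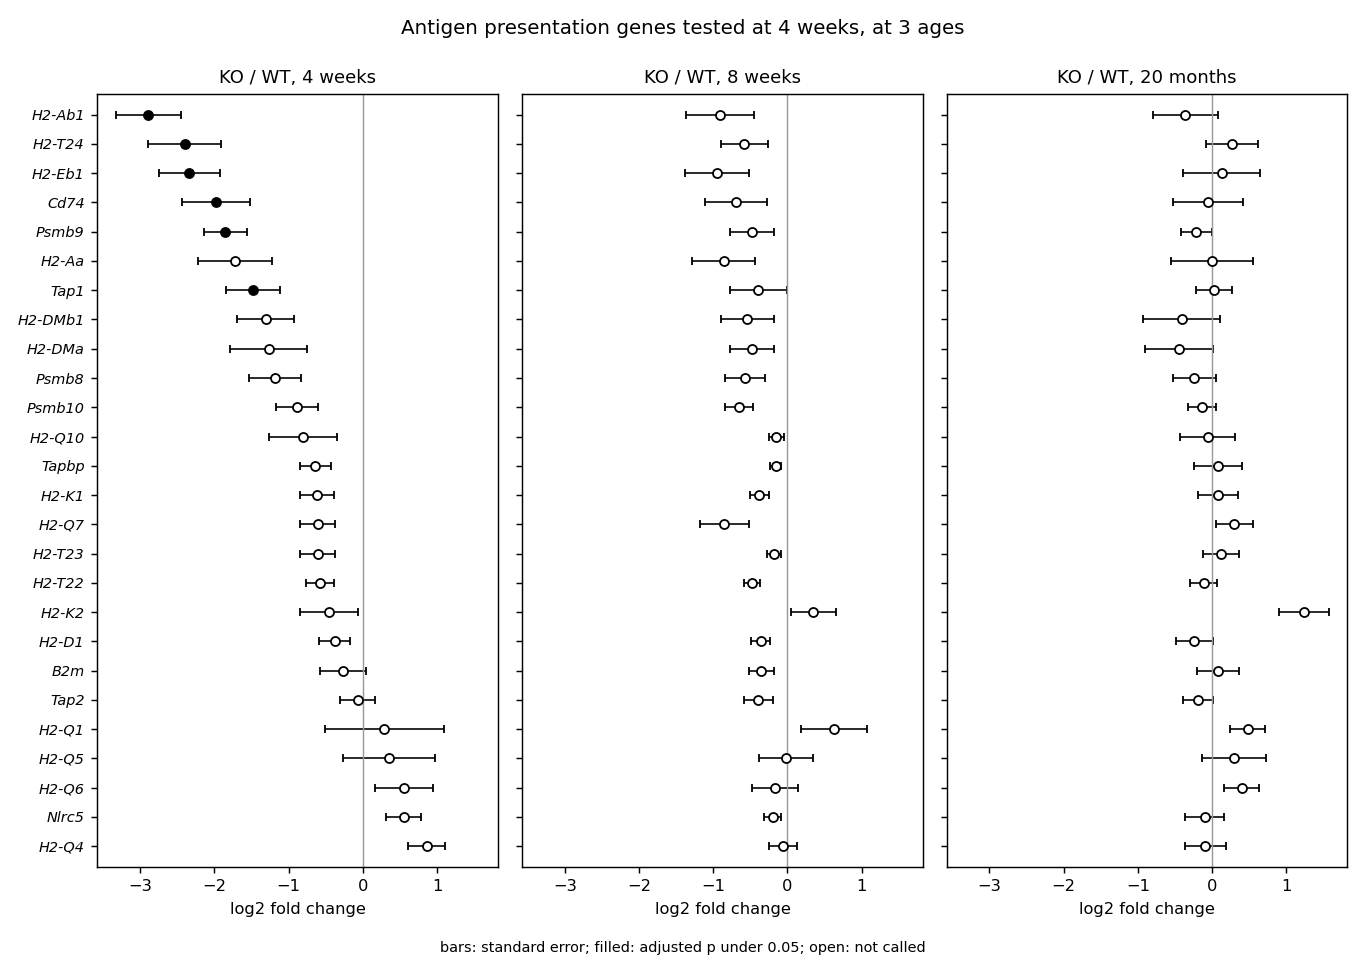
Log2 fold change, KO over WT, with its SE, of the 26 antigen presentation genes tested at 4 weeks, shown at 4 weeks, 8 weeks and 20 months; filled points passed an adjusted p of 0.05. The 6 filled points are all at 4 weeks and all below 0, with H2-Ab1 lowest at -2.89.

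At 8 weeks no antigen presentation gene passed. None of 32 tested was called, against 0.0275% of all genes, and 6 had an unadjusted p under 0.05, against 10.4% of all genes; DESeq2 called 1, H2-T22, against 0.801% of all genes. The log2 fold change was below 0 for 29 of the 32 and had a median of -0.39, against 0.02 over all genes; without WT library 1 it was below 0 for 25 and had a median of -0.17, against 0.03. H2-K1 had 510.0 CPM in the lowest, 635.0 in the median and 759.9 in the highest of the 6 KO livers, against 915.5, 781.6, 808.7 and 796.6 CPM in WT livers, so that the groups did not overlap (log2 fold change -0.38, SE 0.13, unadjusted p = 0.0153, adjusted p = 0.474). H2-T22, a ligand of gamma delta T cells, ran from 34.6 to 48.8 CPM in KO (median 41.4) and from 52.9 to 66.3 CPM in WT (log2 fold change -0.48, SE 0.11, adjusted p = 0.474; DESeq2 adjusted p = 0.0268). H2-T22 shares 53.5% of its 50-base windows with other genes. Psmb10 ran from 8.28 to 16.3 CPM in KO (median 11.7) and from 17.2 to 21.0 CPM in WT (log2 fold change -0.65, SE 0.19, unadjusted p = 0.00687, adjusted p = 0.474). These and H2-Bl were the 4 genes of the set with every KO library below every WT library, an arrangement that 1.07% of all genes showed.

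The class II chains did not separate at 8 weeks. H2-Ab1 had 7.48 CPM in the lowest, 9.84 in the median and 16.5 in the highest KO liver, against 45.3, 8.40, 16.1 and 9.71 CPM in WT livers (log2 fold change -0.91, SE 0.46). Only WT library 1 lay above the KO range. Without it the log2 fold change was -0.08 for H2-Ab1, -0.08 for H2-Aa, -0.11 for H2-Eb1 and 0.07 for Cd74, against -0.86 for H2-Aa, -0.95 for H2-Eb1 and -0.69 for Cd74 with it. That library also held 89.8 CPM of cholangiocyte markers (27.4 to 35.8 in the other WT libraries), 21.6 CPM of monocyte markers (11.8 to 13.1), 16.1 CPM of B cell markers (9.09 to 14.1), 22.1 CPM of dendritic cell markers (15.5 to 20.1) and 668.9 CPM of Kupffer cell markers (468.6 to 555.9).

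The KO livers at 8 weeks varied among themselves in the inducible genes. Tap1 had 7.33, 9.44, 27.0, 22.9, 12.5 and 7.97 CPM in KO libraries 1 to 6, against 27.2, 16.5, 20.1 and 12.2 CPM in WT. KO libraries 3 and 4 were also the highest KO libraries in Psmb8, Psmb9 and B2m, and held 589.9 and 667.2 CPM of the interferon-gamma list, against 120.4 to 451.7 CPM in the other KO libraries and 530.3 to 547.2 CPM in WT. Their hepatocyte marker sums were 96474 and 85541 CPM, against 157454 to 199594 CPM in the other KO libraries and 90374 to 101275 CPM in WT. The same 2 libraries held 450.4 and 449.3 CPM of Kupffer cell markers, against 856.5 to 1066.8 CPM in the other KO libraries and 468.6 to 668.9 CPM in WT. Their monocyte markers summed to 11.5 and 10.3 CPM, against 18.1 to 27.2 CPM in the other KO libraries, and their neutrophil markers to 1.52 and 1.01 CPM, against 3.89 to 11.9 CPM. The part of these differences in the KO spread was not tested.

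At 20 months none of 36 tested antigen presentation genes was called, as was none of 13966 genes (0%), and 2 of the 36 had an unadjusted p under 0.05, against 5.53% of all genes; DESeq2 called none of the 36 and 0.310% of all genes. The median log2 fold change was -0.03, against -0.003 over all genes, with 17 genes above 0 and 18 below. H2-Ab1 had 56.4, 24 and 19 CPM in KO livers, against 35.0, 59.0 and 34.0 CPM in WT livers, and the groups overlapped (log2 fold change -0.36, SE 0.44). Psmb9 had 37.1, 24.2 and 32.9 CPM in KO livers, against 37.5, 41.2 and 30.4 CPM in WT livers (log2 fold change -0.21). H2-K1 had 1579.1, 1671.0 and 2269.6 CPM in KO livers, against 1707.1, 1660.9 and 1861.4 CPM in WT livers (log2 fold change 0.08, SE 0.27). The 2 genes with an unadjusted p under 0.05 were the pseudogene H2-K2, at 8.13 to 16.5 CPM in KO and 3.92 to 5.68 CPM in WT (log2 fold change 1.24, SE 0.34, adjusted p = 0.821), and H2-Q2, at 0.263 to 0.433 CPM in KO and 0.497 to 1.32 CPM in WT (log2 fold change -1.40, SE 0.49, adjusted p = 0.821). Class II genes summed to 81.8 to 274.1 CPM in KO and 117.7 to 238.2 CPM in WT, and B cell markers to 30.0 to 170.4 CPM in KO and 35.5 to 101.9 CPM in WT. Without WT libraries 1 and 2, the log2 fold change was -0.04 for H2-Ab1, 0.04 for Psmb9 and -0.02 for H2-K1. The median was then 0.24 over 37 genes tested, of which 29 were above 0, against 0.024 over all genes. In that fit the spread of the lone WT library was taken from the KO libraries.

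Whether the KO effect differed between ages was tested as a difference of log2 fold changes in a fit of all 22 libraries. Between 20 months and 4 weeks, 1 of 36 genes was called, against 4.52% of all genes: H2-T24, whose effect was higher at 20 months by 2.70 (SE 0.69, adjusted p = 0.0339). At 20 months H2-T24 had 5.42, 3.03 and 7.30 CPM in KO livers, against 5.21, 3.92 and 3.86 CPM in WT livers. The call was lost without WT library 2 or 3 at 4 weeks (adjusted p = 0.0802 and 0.0856), without KO library 1 or 2 at 4 weeks (0.0704 and 0.0680), without WT library 1 or 2 at 20 months (0.0551 and 0.0637) and without KO library 1 or 3 at 20 months (0.0550 and 0.0738). The differences for Psmb9 (1.64, SE 0.49, adjusted p = 0.0563), H2-Ab1 (2.54, SE 0.85, adjusted p = 0.0827) and H2-Eb1 (2.47, SE 0.83, adjusted p = 0.0846) missed the threshold; DESeq2 called 5 of the 36, these 3 among them (adjusted p = 0.0264, 0.0275 and 0.0295), against 11.6% of all genes. Between 8 weeks and 4 weeks none of 36 was called, against 0.328% of all genes, and 7 had an unadjusted p under 0.05, against 14.1%. Between 20 months and 8 weeks none of 36 was called, as was none of all genes (0%), and 2 had an unadjusted p under 0.05, against 11.3%; DESeq2 called none in either of these. Jointly over the 3 ages none of 36 was called, against 1.62% of all genes, and 12 had an unadjusted p under 0.05, against 20.0%; DESeq2 called 1 (7.53% of all genes). Without WT library 1 of 8 weeks, which enters this fit through the shared estimate of the spread, edgeR called H2-Ab1 (2.54, adjusted p = 0.0422) and H2-Eb1 (2.46, adjusted p = 0.0392) between 20 months and 4 weeks beside H2-T24 (2.70, adjusted p = 0.0431). Whether the class II effect differed between these ages thus depended on the tool and on that library.

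In WT livers the immunoproteasome and the classical class I heavy chains were higher at 20 months than at 8 weeks. Age and run cannot be told apart in this comparison. Of the Q region genes 4 of 6 rose, and of 3 tested T region genes H2-T23 rose and H2-T24 fell (log2 fold change -0.50, adjusted p = 0.0376). The H2-T24 call was lost without any 1 of the 4 libraries of 8 weeks or without library 2 or 3 of 20 months (adjusted p 0.0594 to 0.113). Of 36 genes tested, 17 rose and 2 fell, where 54.5% of all genes were called (27.7% higher and 26.8% lower). The median log2 fold change was 0.89, against 0.067 over all genes. All 3 immunoproteasome subunits rose. B cell markers summed to 35.5 to 101.9 CPM at 20 months, against 9.09 to 16.1 CPM at 8 weeks, and the type I interferon list to 461.3 to 612.3 CPM, against 300.1 to 317.3 CPM; their part in the age differences was not tested. Psmb9 had 37.5, 41.2 and 30.4 CPM at 20 months, against 10.4, 6.93, 7.27 and 5.73 CPM at 8 weeks, a 4.63-fold rise (log2 fold change 2.21, SE 0.21, adjusted p = 1.22e-04). Psmb8 had 53.2, 56.7 and 28.9 CPM at 20 months, against 15.6, 9.78, 10.6 and 10.2 CPM at 8 weeks (log2 fold change 1.95, SE 0.27, adjusted p = 6.09e-04), while Psmb10 had a log2 fold change of 1.31.

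Both classical heavy chains were higher at 20 months than at 8 weeks, but at 4 weeks they were also higher than at 8 weeks. WT livers at 4 weeks had 1125.5 to 1551.8 CPM of H2-K1 and 471.9 to 626.0 CPM of H2-D1. H2-T23 had 157.7 to 198.0 CPM at 4 weeks, 107.8 to 120.3 CPM at 8 weeks and 156.4 to 180.6 CPM at 20 months. H2-K1 had 1707.1, 1660.9 and 1861.4 CPM at 20 months, against 915.5, 781.6, 808.7 and 796.6 CPM at 8 weeks (log2 fold change 1.03, SE 0.15, adjusted p = 7.93e-04), and H2-D1 rose by 1.02 in log2 (adjusted p = 0.00117, SE 0.16). The light chain B2m had 1037.2, 1287.6 and 1629.5 CPM at 20 months, against 1242.6, 1091.9, 1112.0 and 1116.7 CPM at 8 weeks, and the groups overlapped (log2 fold change 0.16, SE 0.19, adjusted p = 0.487). Without WT libraries 1 and 2 of 20 months its log2 fold change was 0.52. In that fit Tapbp, Nlrc5 and H2-Q6 had log2 fold changes of -0.74, -0.71 and 0.56. With all libraries H2-Q6 passed as higher (edgeR adjusted p = 0.0102), and Tapbp and Nlrc5 did not pass (0.460 and 0.0761). Without WT library 1 of 20 months alone, Tapbp (-0.45, adjusted p = 0.0443) and Nlrc5 (-0.50, adjusted p = 0.0377) passed as lower. H2-Q10 rose (log2 fold change 1.27, adjusted p = 0.00413), as did Tap2 (log2 fold change 1.25), while Tap1 missed the threshold (log2 fold change 0.52, adjusted p = 0.108). The class II chains did not pass, with log2 fold changes of 1.04 for H2-Ab1 (SE 0.58, adjusted p = 0.159) and 0.19 for H2-Aa (adjusted p = 0.795), and 0.06 for Cd74. Without WT library 1 of 8 weeks, H2-Ab1 (1.84, adjusted p = 0.00337), H2-Eb1 (1.72, adjusted p = 0.00219), H2-Aa (0.94, adjusted p = 0.0471) and Tap1 (0.74, adjusted p = 0.0174) passed. The peptide exchange genes H2-DMa (log2 fold change 1.49), H2-DMb1 (1.33) and H2-Ob (1.18) rose with all libraries. When WT libraries 1 and 2 of 20 months, those with high neutrophil markers, were both left out, their log2 fold changes were 0.83, 0.75 and 0.73. Those of Psmb9 and H2-K1 were then 1.99 and 1.18. That fit has 1 library at 20 months, assumed to vary like those of 8 weeks, and the median over the 36 genes was then 0.54, against -0.083 over all genes. The calls of H2-DMb1 and H2-Ob were lost without WT library 2, 3 or 4 of 8 weeks or WT library 2 of 20 months (adjusted p 0.0521 to 0.126 for H2-DMb1 and 0.0566 to 0.0899 for H2-Ob). The greatest rise among the 36 was that of H2-Ke6, a steroid dehydrogenase gene of the region with no part in antigen presentation (1.53 to 1.88 CPM at 20 months, against 0.170 to 0.344 CPM at 8 weeks; log2 fold change 2.79, SE 0.30, adjusted p = 1.81e-04), and 70.5% of its 50-base windows also occur in the overlapping gene Gm20427.

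Between 8 weeks and 4 weeks in WT livers, 5 of 33 tested genes rose and 6 fell, where 53.2% of all genes were called (27.5% higher and 25.7% lower). Those that fell included H2-K1 (log2 fold change -0.64, SE 0.13, adjusted p = 0.00262), H2-D1 (-0.46, adjusted p = 0.0144), H2-Q10 (-0.40, adjusted p = 0.0292), H2-T23 (-0.59, adjusted p = 8.08e-04) and B2m (-0.55, SE 0.13, adjusted p = 0.00512). The H2-Q10 call was lost without WT library 2 or 3 of 4 weeks (adjusted p = 0.0505 and 0.118), without WT library 1, 2 or 3 of 8 weeks (0.0682, 0.0618 and 0.0659), with no filter (0.0888) and with all 22 libraries in the fit (0.349). The H2-D1 call was lost without WT library 3 of 4 weeks (0.0615), and that of B2m with all 22 libraries in the fit (0.0929). The median log2 fold change of the set was 0.08, against 0.045 over all genes. Without WT library 1 of 8 weeks it was -0.32, against 0.01 over all genes. H2-Q4, H2-DMa and H2-M3 then also passed as lower (adjusted p = 0.0212, 0.0352 and 0.0472). Tapbp rose (log2 fold change 0.95, SE 0.13, adjusted p = 1.63e-04), as did Nlrc5 (1.05, SE 0.17, adjusted p = 5.97e-04). The pseudogene H2-Bl had 12.7 to 14.4 CPM at 8 weeks, against 0.482 to 0.572 CPM at 4 weeks (log2 fold change 4.65, SE 0.20, adjusted p = 2.89e-07), and 1.55 to 3.06 CPM at 20 months. In KO livers H2-Bl likewise had 0.174 to 0.665 CPM at 4 weeks, 9.77 to 12.6 CPM at 8 weeks and 0.693 to 2.37 CPM at 20 months. Its level was thus highest in all libraries of the 8-week run, where age and run cannot be told apart.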

How the data were processed

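The authors deposited 1 table of raw read counts per gene for each of the 22 libraries. Per the submitters' processing notes, HISAT2 2.0.4, HTSeq 0.6.1p1 and GRCm38 were used; the annotation release and the strand setting of the counting are not given in the sources used here. The labels' protocol names no step that marks strand, so reads of genes that overlap on opposite strands cannot be told apart. Reads in no gene or in more than 1 gene were listed separately (6.13 to 17.8% and 3.80 to 7.30% of reads) and were left out of library sizes and tests.

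Identifiers were matched to GENCODE GRCm38 symbols. Counts were tested with edgeR 4.0.16 (limma 3.58.1, R 4.3.3): low genes were removed with filterByExpr, libraries scaled by TMM, and the quasi-likelihood F-test was applied with Benjamini-Hochberg adjustment over all genes tested and a threshold of 0.05. Each comparison was fitted on its own groups. Differences of the KO effect between ages were tested as interactions in 1 fit of all 22 libraries. SE is the absolute log2 fold change divided by the square root of F, and CPM uses TMM factors of the 22 libraries. The pipeline was tested on simulated counts.

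Alternatives were DESeq2 1.42.0, its size factors within edgeR, no filter on low counts, a replicate block, a fit of all 22 libraries, and each library left out in turn. Leaving out WT libraries 1 and 2 of 20 months together was added after the data were seen. No 2 replicates of a group were closer than sampling noise (smallest chi-square per degree of freedom 8.34). The genes, the lists around them and the cell markers were chosen with earlier results of these data known. Values per library are given for the classical genes, the transactivators, Tap1, Psmb8, Psmb9 and genes called between KO and WT; other genes of the set with values were picked after these were seen. From each list around them, up to 4 genes with the smallest adjusted p and markers at 0 are named. Promoter sequences are RefSeq's (GRCm38.p6). Python 3.11.15, pandas 2.3.3 and matplotlib 3.10.9 were used for tables and figures.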

Additional observations from a re-analysis of the deposited data

Results flagged for a closer look

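WT library 1 at 8 weeks lay far above the other 3 WT libraries of its age in 7 antigen presentation genes, by the gap to the nearest library over the range of the group (7 of 64 sets of libraries examined). All 7 are values of this 1 library, so they are not independent, and a chance rate for single sets does not apply to their number. The library held 50.2 CPM of H2-Aa (16.5 in the nearest library), 41.2 CPM of H2-Eb1 (12.8), 15.6 CPM of Psmb8 (10.6), 451.3 CPM of H2-D1 (373.5), 57.6 CPM of H2-Q7 (39.5), 3.17 CPM of H2-M3 (1.77) and 1242.6 CPM of B2m (1116.7). Its T and NK cell markers summed to 11 CPM, against 5.54 to 5.99 CPM in the other 3, and the part of other cells in its values was not tested.

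The KO effect on H2-T24 differed between 20 months and 4 weeks by 2.70 on the log2 scale (adjusted p = 0.0339, edgeR's interaction test). The call was lost with a replicate block (adjusted p = 0.0814) and without single libraries as given above. In edgeR's joint test of the 3 ages H2-T24 was not called (adjusted p = 0.0860), while DESeq2's joint test called it (adjusted p = 0.0251). Its KO values at 4 weeks rest on 3, 3 and 5 reads.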

How the results depend on the processing

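No call reversed its direction under the alternatives run. At 4 weeks the 6 calls became 10 with no filter on low counts, 11 with all 22 libraries in the fit, 8 with DESeq2, 5 with a replicate block, and 2 to 9 with 1 library left out. The calls among all genes moved too, from 1200 of 11144 to 2048 of 21241 with no filter and 1769 of 15877 with all 22 libraries. They became 1567 of 13153 with DESeq2, 537 of 11144 with a replicate block, and 184 of 11419 to 2012 of 11439 with 1 library left out. Of 66 values of the 6 called genes under these alternatives, 51 kept the call and 15 lost it. At 8 weeks DESeq2 called 1 gene of the set, and at 8 weeks and 20 months no gene of the set was called with any 1 library left out. Among all genes, leaving out 1 library gave 1 to 5 calls at 8 weeks and 0 to 71 at 20 months. For the KO effect at 20 months minus 4 weeks, the 1 call became 5 with DESeq2, 0 with a replicate block, and 0 to 3 with 1 library left out. The 718 of 15877 calls among all genes became 1556 of 13468, 122 of 15877, and 164 of 16582 to 1405 of 15717 in these settings. Over the 3 ages jointly, DESeq2 called 1, and leaving out 1 library gave 0 to 1, where all genes gave 1188 of 15779, and 26 of 16582 to 1081 of 16597. In WT livers the calls numbered 15 to 25 for 20 months over 8 weeks and 8 to 13 for 8 weeks over 4 weeks with 1 library left out. All genes then gave 6433 of 14369 to 8809 of 15111 calls, and 6501 of 13041 to 7482 of 14364 calls. The cause of these changes was not tested. Among same-numbered KO and WT libraries, none at 4 and 8 weeks passed the limit of 0.1 set for a pairing. Their deviations from the group means correlated between -0.041 and 0.026 (4 weeks) and between -0.285 and 0.074 (8 weeks). At 20 months they correlated between 0.068 and 0.40, with 2 of 3 pairs above the limit of 0.1. Same-numbered WT libraries of 20 months and 8 weeks, which differ in age, correlated between 0.033 and 0.272, also with 2 of 3 pairs above the limit. This check can therefore neither show nor exclude a pairing at any age, and the main fit did not use one. The 4-week libraries were the shallowest, and 29 of the 55 genes were too low to be tested there. No filter on low counts moved the median of all genes by 0.414 in the 8-week over 4-week comparison.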
